A study of Homo sapiens with 8 samples.

Results

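The genes described here are the ZNF-numbered zinc finger genes of human chromosome 19. They were taken as the protein-coding genes whose symbol is ZNF followed by a number, that GENCODE release 29 places on chromosome 19 of GRCh38, and that had at least 10 counts in 4 or more of the 8 RNA-seq libraries. Of 249 such genes in the annotation, 247 were listed in the count files and 168 met the count threshold, so they were chosen by their counts in these libraries, among 48162 listed identifiers in all. The libraries came from HT-29, an established line of human colorectal adenocarcinoma. One group is wild-type HT-29 (WT, 4 libraries) and the other is HT-29 edited at MIEN1 (MIEN1 KO, 4 libraries), with no other treatment in the labels. Editing used plasmids for Cas9 and for a guide on either side of the target, followed by puromycin and growth from single cells. Each library is a pool of RNA from 4 dishes, and the labels call the libraries independent biological replicates. The labels do not say how many edited clones were used, where the edit lies, or that the WT cells were cloned, so the edit, the cloning and any batch cannot be told apart in any difference below.

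Most proteins of this family hold a row of C2H2 zinc fingers, each of which can contact a few bases of DNA. In many of them a KRAB domain near the start of the protein recruits TRIM28 (KAP1), which in turn brings the histone methyltransferase SETDB1 and other repressors to the bound site. The family grew by repeated local duplication, so its genes stand in clusters on chromosome 19, and many of them bind and repress transposable elements. In cancers of the colon and other organs, several of these genes are known for methylated and silent promoters.

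The libraries held between 21940903 and 25148790 counts, and 14228 genes entered the edgeR test. Levels are CPM, counts scaled to library totals with TMM factors, given as mean ± SD with n = 4. A log2 fold change is MIEN1 KO over WT, and a gene was called at a Benjamini-Hochberg adjusted p below 0.05 in edgeR's quasi-likelihood test over all 14228 genes. MIEN1 itself fell from 21.6 ± 1.36 CPM to 0.805 ± 0.186 CPM (log2 fold change -4.75, SE 0.13, exact two-sided permutation p = 0.0286, the smallest p that 4 against 4 allows). All 10 markers of colon epithelium had at least 40 counts over the WT libraries. In MIEN1 KO 7 of them did, with CDH17, CDX1 and CDX2 below that level. Summed markers of fibroblasts, leukocytes and endothelium came to 5.0 CPM or less in every library, with COL3A1 and CD68 at 0 in all 8. The summed fibroblast markers were 1.92 to 3.20 CPM in WT and 3.47 to 5.0 CPM in MIEN1 KO, without overlap, nearly all of it COL1A1 (2.52 and 4.09 CPM, adjusted p = 0.00586), and their part in the results was not tested. Leaving out MIEN1 KO replicate 4 gave the largest shares of all tested genes called on leaving out 1 library, 21.5% lower and 24.4% higher. Its median log2 deviation from the WT mean over all tested genes, -0.014, lay within those of the other MIEN1 KO libraries (-0.018 to -0.0086). Several results are given also without MIEN1 KO replicate 4.

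Of the 168 genes, 80 were called lower in MIEN1 KO and 4 higher, while 84 were not called. Over all tested genes 20.7% were called lower and 21% higher. The median log2 fold change of the 168 genes was -0.31, with the middle 50% between -0.66 and -0.10, beside -0.02 for all tested genes. Of the 80 genes, 28 were at least 2-fold lower (3.86% of all genes tested) and 15 at least 4-fold lower (1.69% of all genes tested), of which 14 and 13 are genes that the count threshold forced to be lower, as described next. None was called and 2-fold higher (1.72% of all genes tested). In bulk RNA, fewer cells with a transcript and less of it per cell cannot be told apart. In 81 genes every MIEN1 KO library lay below every WT library, and in 4 every one lay above, beside 21% and 20.1% of all tested genes.

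The count threshold decided some of this by itself. In 14 genes at least 4 libraries with 10 counts were found only because the WT libraries had them, and these 14 had to be lower in MIEN1 KO. No gene met the threshold through MIEN1 KO alone. The 14 are ZNF253, ZNF737, ZNF91, ZNF260, ZNF529, ZNF567, ZNF850, ZNF585A, ZNF607, ZNF573, ZNF223, ZNF577, ZNF649 and ZNF615, and their values are given below as a description. In the other 154 genes libraries of both groups reached 10 counts, though not always all of them. This is meant below by passing through both groups, and the WT libraries could still help such a gene past the threshold. Of the 154, 66 were called lower and 4 higher, with a median of -0.26. Of these 154, 14 were at least 2-fold lower and 2 at least 4-fold lower (ZNF480 and ZNF429). A stricter set is the 150 genes with 10 counts in all 8 libraries, where 63 were called lower and 4 higher, with a median of -0.26. Of the 150, 12 were at least 2-fold lower and 1 at least 4-fold lower, which was ZNF480. ZNF429 is not among the 150. Just inside the threshold by the count of the library ranked 4 from the top were ZNF546 (10 counts), ZNF737 (11) and ZNF529 (12), and just outside were ZNF566 (9), ZNF114 (7) and ZNF486 (7).

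The 79 genes below the threshold were counted as well. In 70 of them no library reached 10 counts, and 35 were at 0 in all 8. The other 9 reached 10 counts in 1 to 3 libraries, and in none of the 9 was the MIEN1 KO sum above the WT sum. ZNF566 had 13, 30, 13 and 9 counts in the WT libraries and ZNF486 had 10, 7, 15 and 9, and both were at 0 in every MIEN1 KO library. ZNF420, ZNF681 and ZNF793, chosen after their values were seen, were also at 0 in MIEN1 KO, with 38, 34 and 28 counts over the WT libraries. In all, 12 of the 79 had at least 10 counts over the WT group and 0 over the MIEN1 KO group, and none had the reverse. No share over all genes with so few counts is at hand to set beside this, so it is a description only.

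**Figure D1:**
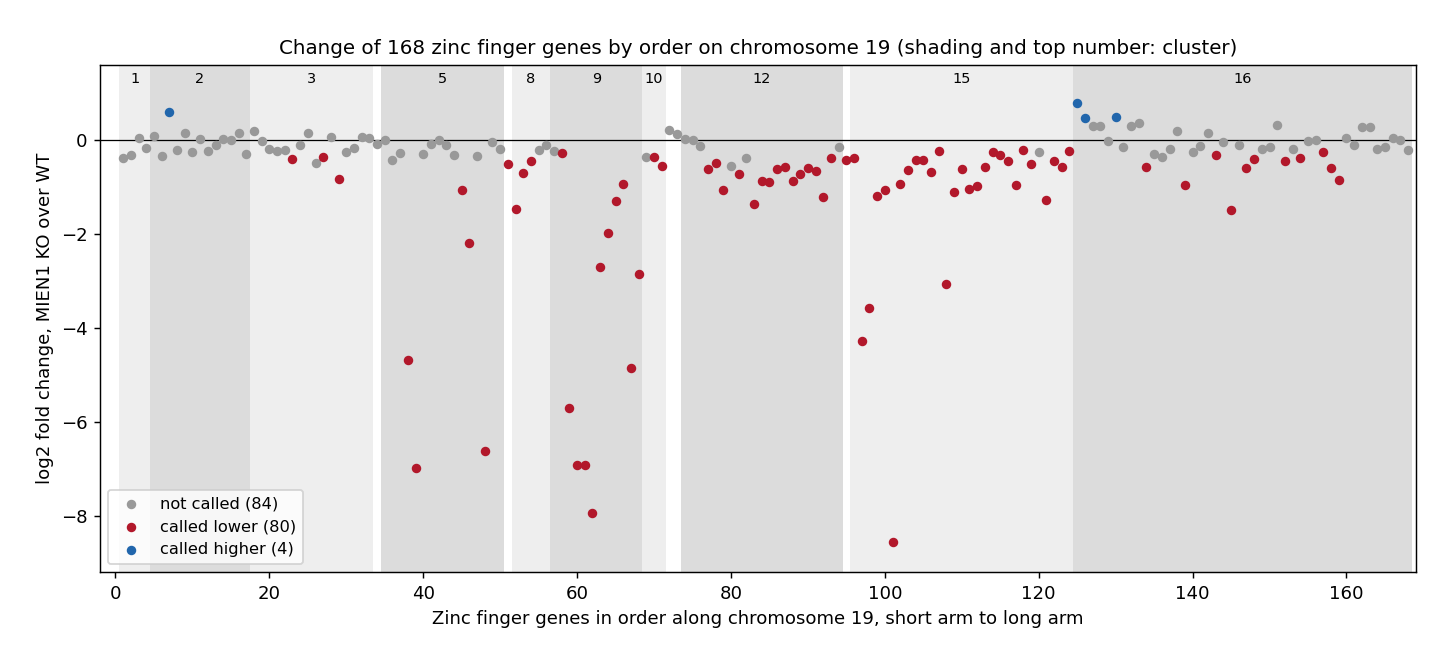
Each point is 1 of the 168 genes, placed by its order along chromosome 19 on the x axis and by its log2 fold change (MIEN1 KO over WT) on the y axis. Red points are the 80 genes called lower, blue points the 4 called higher and grey points the 84 not called. Shaded blocks with a number are clusters of at least 3 members, and the lowest points lie in clusters 5, 9 and 15.

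For the position of each gene, neighbouring ZNF-numbered genes were joined into 1 cluster where the gap between them was 1 Mb or less, which gave 10 clusters with at least 3 members and 5 genes outside them. On the long arm 72 of 118 genes (61.0%) were called lower and 3 higher, with a median of -0.42. On the short arm 8 of 50 (16%) were called lower and 1 higher, with a median of -0.19. Over all tested genes 20.7% were called lower and 21% higher. Without the 14 genes that had to be lower, 61 of 107 on the long arm (57.0%) were called lower, with a median of -0.38. On the short arm 5 of 47 (10.6%) then were, with a median of -0.17. Both short arm shares lay below that of all tested genes. The 15 genes at least 4-fold lower lay in clusters 5, 9 and 15, with 4, 7 and 4 of them. The plot of fold change by order along the chromosome shows these as columns of low points among neighbours that changed less.

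The genes that fell furthest in the run from ZNF565 to ZNF573 (cluster 9, 36.2 to 37.8 Mb) were close to 0 in MIEN1 KO. ZNF850, a protein with 29 zinc fingers and a KRAB domain, had 24, 34, 38 and 30 counts in the WT libraries and 0 in all 4 MIEN1 KO libraries. That is at least 39.9-fold lower, taking 3 counts over the group as the upper limit of a count of 0. ZNF529 had 17, 16, 17 and 12 counts in WT and 0 in all 4 MIEN1 KO libraries, which is at least 19.6-fold lower. The groups did not overlap in either gene, and both are among those that had to be lower.

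ZNF567 had 42, 72, 31 and 45 counts in WT and a single count in MIEN1 KO replicate 3, a ratio of 180.4 with an exact (Clopper-Pearson) 95% counting interval of 32.0 to 7162. ZNF260, whose protein is made of zinc fingers with no KRAB core found, had 34, 26, 32 and 44 counts in WT and 0, 0, 0 and 2 in MIEN1 KO (ratio 64.6, interval 17.5 to 539). ZNF607 had 20, 12, 21 and 22 counts in WT and 2, 0, 0 and 0 in MIEN1 KO (ratio 35.6, interval 9.52 to 299). Such intervals and limits hold only the error of counting, as the reads carry no molecular identifiers and copies of 1 molecule may be counted more than once. All 3 genes were thus detected at no more than 2 counts in any MIEN1 KO library.

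Other genes of the run kept part of their level. ZNF585A fell from 1.03 ± 0.211 CPM to 0.150 ± 0.0840 CPM and ZNF573 from 1.14 ± 0.142 CPM to 0.154 ± 0.0963 CPM. ZNF585B, a close copy next to ZNF585A, fell from 3.19 ± 0.271 CPM to 0.811 ± 0.430 CPM (log2 fold change -1.97, SE 0.26, adjusted p = 4.61e-05 in edgeR). The ZNF585A and ZNF585B transcripts share 14.8% and 20.2% of their 50-base words with other genes, so reads may have been divided or lost between them. ZNF383 fell from 3.47 ± 0.558 to 1.42 ± 0.137 CPM (-1.29, SE 0.16, adjusted p = 3.04e-05) and ZNF527 from 1.42 ± 0.299 to 0.736 ± 0.251 CPM (-0.94, SE 0.26, adjusted p = 0.00949). In all of these every MIEN1 KO library was below every WT library.

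The pair at the start of the run kept most of its level. ZNF146 (OZF), a protein of zinc fingers without a KRAB domain that is known to be overexpressed in colorectal cancers, had 142, 152, 150 and 142 CPM in WT and 116, 135, 123 and 110 CPM in MIEN1 KO. Its log2 fold change was -0.28 (SE 0.07, adjusted p = 0.00734), and -0.13 (adjusted p = 0.0435) with the trend in transcript GC content, described below, removed. ZNF565, of whose exon bases 11.6% are shared with ZNF146 on the other strand, was 4.77 ± 0.199 CPM in WT and 4.06 ± 0.286 CPM in MIEN1 KO and was not called (-0.23, SE 0.11, adjusted p = 0.0929). Over the run, 11 of 12 genes were called lower, 7 of them among the 14 that had to be, and the median was -2.78. Of the 5 that passed through both groups, 4 were called lower, with a median of -0.94.

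Genes of the same run that are not among the 168 are shown for context, because several stand between the genes that were lost. LINC00665, a long noncoding RNA, had 123, 133, 127 and 155 counts in WT and 1, 0, 0 and 0 in MIEN1 KO. ZFP14, a zinc finger gene named without ZNF, had 4, 17, 10 and 15 counts in WT and 0, 0, 0 and 1 in MIEN1 KO. HKR1, another KRAB zinc finger gene in the middle of the run, kept most of its level, with 20.3 CPM in WT and 15.3 CPM in MIEN1 KO (log2 fold change -0.41). Between ZNF146 and ZNF585A, 8 of the 9 genes with at least 20 counts in all (LINC00665, ZFP14, ZNF566, ZNF260, ZNF529, ZNF567, ZNF850 and ZNF420) were at 0 to 2 counts in each MIEN1 KO library. The other, AC092295.2, an antisense RNA, stood at 1 to 4 counts in MIEN1 KO and 3 to 8 in WT. Those 8 genes reached 20 counts through the WT libraries alone, so this limit favoured genes low in MIEN1 KO. Genes of the stretch that were low in both groups, such as ZNF382 and ZNF461, are left out by it.

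**Figure D2:**
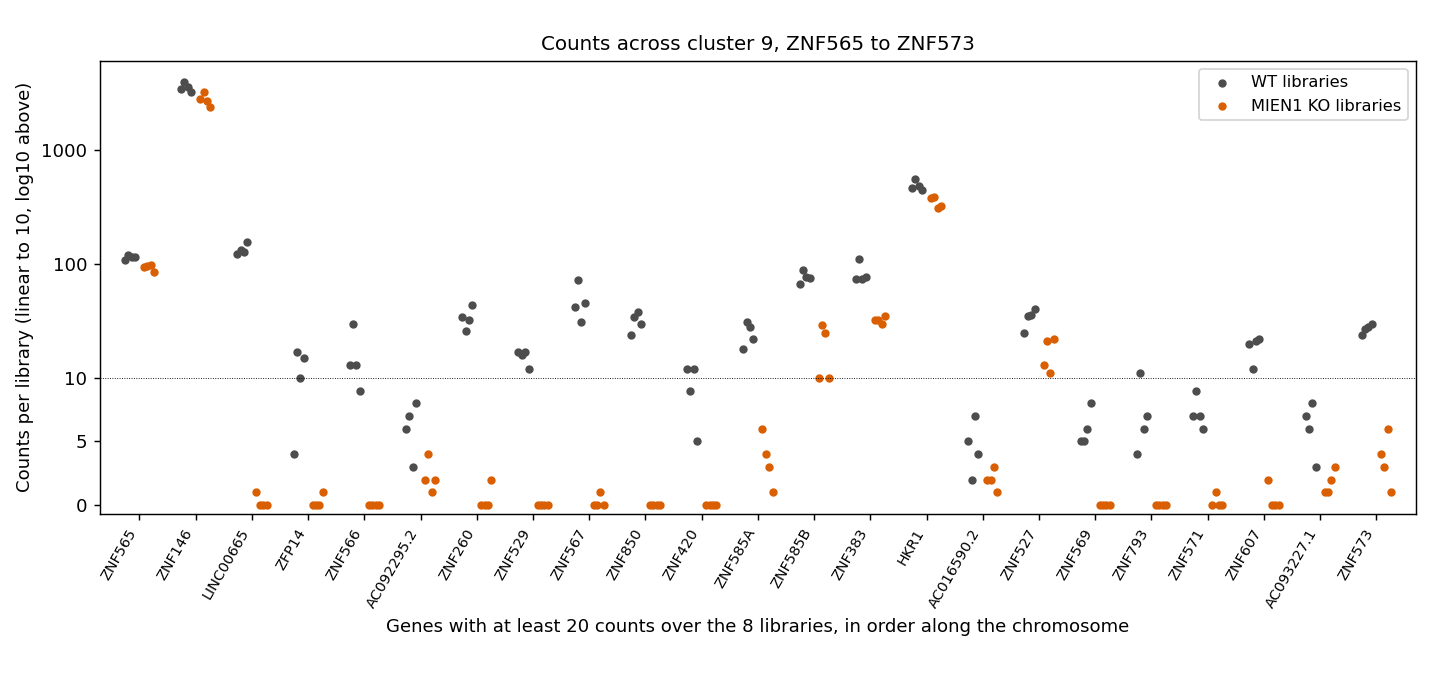
Counts per library (y axis, linear to 10 and log10 above) are plotted for the 23 genes of cluster 9 with at least 20 counts over the 8 libraries, in their order along the chromosome (x axis). The limit of 20 counts could be met through the WT libraries alone. Grey points are the 4 WT libraries and orange points the 4 MIEN1 KO libraries, and the dotted line marks 10 counts. ZNF529, ZNF850, ZNF566, ZNF420, ZNF569 and ZNF793 are at 0 in every MIEN1 KO library, while ZNF565, ZNF146 and HKR1 stay above 80 counts in all 8.

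In the run from ZNF175 to ZNF331 (cluster 15, 51.6 to 53.6 Mb) nearly every gene was lower. ZNF615, with 19 zinc fingers and a KRAB domain, had 47, 42, 40 and 64 counts in WT and 0 in every MIEN1 KO library, at least 61.1-fold lower. ZNF577 had 43, 44, 43 and 42 counts in WT and 3, 3, 0 and 2 in MIEN1 KO. ZNF649 had 45, 49, 61 and 39 counts in WT and 3, 1, 7 and 4 in MIEN1 KO. In all 3 the groups lay far apart, with no more than 7 counts in any MIEN1 KO library.

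ZNF480 passed the threshold in both groups and had the largest fall of those that did. It had 155, 158, 135 and 139 counts in WT and 17, 15, 13 and 21 in MIEN1 KO, 6.11 ± 0.330 against 0.727 ± 0.170 CPM (log2 fold change -3.07, SE 0.15, adjusted p = 4.70e-09). The MIEN1 KO level was 11.9% of the WT level. At the other end ZNF331, an imprinted gene known to be methylated in gastrointestinal cancers, was 14.1 ± 0.261 CPM in WT and 12.1 ± 0.954 CPM in MIEN1 KO (log2 fold change -0.22, SE 0.08, adjusted p = 0.0393). Its call was lost on leaving out any library but MIEN1 KO replicate 2, with values between -0.22 and -0.17 and adjusted p up to 0.139, and with the GC trend removed (-0.16, adjusted p = 0.103).

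Over this run 28 of 29 genes were called lower, and the exception was ZNF845 (log2 fold change -0.26, chosen after its value was seen). The median was -0.61 and all 29 values were below 0, from -8.56 to -0.22. Of the 26 genes that passed through both groups, 25 were called lower, with a median of -0.58. Of these 26, 18 were called lower with the GC trend removed, with a median of -0.43. The pattern was thus a moderate fall of nearly all genes, with ZNF615, ZNF577, ZNF649 and ZNF480 far below their neighbours.

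In the run near the centromere from ZNF101 to ZNF254 (cluster 5, 19.7 to 24.1 Mb) 5 genes were called lower among 11 neighbours that were not. Of the 5, ZNF91, ZNF737 and ZNF253 had to be lower by the count threshold, and of the other 13 genes 2 were called lower, with a median of -0.27. ZNF91, whose protein of 32 zinc fingers represses SVA and LINE-1 transposable elements, had 138, 132, 101 and 95 counts in WT and 0, 3, 1 and 0 in MIEN1 KO, 4.84 ± 0.763 against 0.0428 ± 0.0590 CPM. Its fitted log2 fold change was -6.62 and moved between -7.90 and -6.21 when a library was left out, the lower value without MIEN1 KO replicate 2. ZNF737 had 12, 11, 20 and 21 counts in WT and 0 in all MIEN1 KO libraries, at least 20.3-fold lower. ZNF253 had 21, 23, 22 and 28 counts in WT and 1, 1, 1 and 0 in MIEN1 KO (ratio 29.7, interval 9.87 to 147).

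ZNF429 and ZNF493, chosen after their values were seen, were the other 2 called genes of the run. ZNF429 fell to 0.325 ± 0.173 CPM from 1.51 ± 0.136 CPM in WT (log2 fold change -2.18, SE 0.29, adjusted p = 4.88e-05) and ZNF493 from 1.50 ± 0.373 to 0.721 ± 0.326 CPM (-1.05, SE 0.30, adjusted p = 0.0123). The other 11 were not called, and ZNF101 was level at 7.64 ± 0.122 CPM in WT and 7.65 ± 0.214 CPM in MIEN1 KO (log2 fold change 0.00, SE 0.08). The median of the 16 genes was -0.31, and -0.12 with the GC trend removed. Without MIEN1 KO replicate 2, 8 genes of the run were called lower in place of 5. ZNF93, which represses LINE-1 elements, was below the threshold, with 4, 8, 5 and 7 counts in WT and 0 in every MIEN1 KO library.

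To show what stands in front of the lost genes, the 250 bases upstream of the first RefSeq start (GRCh38.p14) are given for the 4 members at 0 in every MIEN1 KO library, each followed by the member of the same cluster with the smallest change. Sequences are in the direction of transcription, 5′ to 3′, in lower case with each CG dinucleotide, the site of DNA methylation, in capitals. In cluster 15, ZNF615 (chr19:52008212-52008461, minus strand) holds 17 CG dinucleotides and ZNF816 (chr19:52962882-52963131, minus strand, log2 fold change -0.22) holds 19. In cluster 9, ZNF850 (chr19:36772808-36773057, minus strand) holds 19, ZNF529 (chr19:36605258-36605507, minus strand) 20 and ZNF565 (chr19:36215085-36215334, minus strand) 24. In cluster 5, ZNF737 (chr19:20565782-20566031, minus strand) holds 7 and ZNF101 (chr19:19668589-19668838, plus strand) 14.
ZNF615: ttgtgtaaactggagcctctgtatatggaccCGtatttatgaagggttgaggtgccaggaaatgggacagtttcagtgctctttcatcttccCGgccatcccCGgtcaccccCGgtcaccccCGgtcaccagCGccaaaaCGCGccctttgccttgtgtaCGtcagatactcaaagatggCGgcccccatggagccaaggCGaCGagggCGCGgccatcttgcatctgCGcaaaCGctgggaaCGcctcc
ZNF816: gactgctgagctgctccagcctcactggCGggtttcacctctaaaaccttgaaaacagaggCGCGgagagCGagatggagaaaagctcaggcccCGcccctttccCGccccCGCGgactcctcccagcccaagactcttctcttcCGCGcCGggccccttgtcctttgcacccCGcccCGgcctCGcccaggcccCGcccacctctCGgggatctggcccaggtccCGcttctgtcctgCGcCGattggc
ZNF850: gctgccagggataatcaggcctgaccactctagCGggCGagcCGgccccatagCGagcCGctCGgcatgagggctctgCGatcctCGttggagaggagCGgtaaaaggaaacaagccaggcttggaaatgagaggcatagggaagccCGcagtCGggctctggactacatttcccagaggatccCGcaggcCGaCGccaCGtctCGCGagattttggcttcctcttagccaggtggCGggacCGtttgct
ZNF529: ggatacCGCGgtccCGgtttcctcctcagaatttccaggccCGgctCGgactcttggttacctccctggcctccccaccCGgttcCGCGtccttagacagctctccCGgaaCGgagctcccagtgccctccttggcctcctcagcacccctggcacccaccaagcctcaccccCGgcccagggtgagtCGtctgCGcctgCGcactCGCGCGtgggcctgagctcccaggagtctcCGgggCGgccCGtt
ZNF565: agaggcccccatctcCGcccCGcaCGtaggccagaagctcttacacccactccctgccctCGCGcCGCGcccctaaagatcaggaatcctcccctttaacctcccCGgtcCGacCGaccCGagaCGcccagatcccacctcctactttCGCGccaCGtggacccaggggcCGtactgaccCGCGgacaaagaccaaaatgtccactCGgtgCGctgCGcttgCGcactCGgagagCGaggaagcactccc
ZNF737: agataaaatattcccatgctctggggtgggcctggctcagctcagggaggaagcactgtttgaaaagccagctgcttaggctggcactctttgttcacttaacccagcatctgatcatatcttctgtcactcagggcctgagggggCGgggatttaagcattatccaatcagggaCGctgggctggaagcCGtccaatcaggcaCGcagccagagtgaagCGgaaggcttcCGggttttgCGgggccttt
ZNF101: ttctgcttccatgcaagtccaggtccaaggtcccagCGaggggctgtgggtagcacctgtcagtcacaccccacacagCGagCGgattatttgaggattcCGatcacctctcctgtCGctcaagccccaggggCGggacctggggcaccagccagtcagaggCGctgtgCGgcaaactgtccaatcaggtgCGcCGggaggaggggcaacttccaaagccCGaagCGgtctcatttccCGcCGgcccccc

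In these 7 genes the lost ones held fewer CG dinucleotides than the least changed gene of their cluster, and ZNF737 had the lowest number. All 7 were picked by their change, and the lost ones had to be lower by the count threshold. ZNF816, the least changed gene of cluster 15, was itself called lower. Whether lost genes hold fewer was not tested. RefSeq gave a promoter for 149 of the 168 genes by symbol, and ZNF253, ZNF480 and ZNF649 were among the 19 without one. The median number of CG dinucleotides was 15.5 in the 12 matched genes that were at least 4-fold lower, 16 in the other 137 matched members and 11 over 27305 promoters of all genes. In ZNF565 and ZNF146, which are transcribed away from each other, the 250-base windows share 21 bases. Nothing in these files measures methylation.

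A set of 4 motifs was searched on both strands of the same 250 bases. The ETS-like letters CCGGAAG occurred in 4 of the 12 genes at least 4-fold lower (33.3%), in 29.2% of the other members and in 8.82% of all promoters. The GC box GGGCGG occurred in 4 of the 12 (33.3%), in 65.0% of the other members and in 42.3% of all promoters. CGCGAGA occurred in 8.33%, 2.92% and 2.96%, and the NRF1-like letters GCATGCG in 8.33%, 2.92% and 3.57%. None of the 4 contains another. A match is a description of these letters only, and with 12 genes a single promoter moves a share by several percentage points.

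A broad fall of moderate size was seen in the run from ZNF575 to ZNF296 (cluster 12, 43.5 to 45.1 Mb), where 15 of 21 genes were called lower and none higher, with a median of -0.61. Without ZNF223, which had to be lower, 14 of 20 were called lower, with a median of -0.60. ZNF112 had 3.35, 2.92, 3.41 and 3.12 CPM in WT and 1.38, 1.46, 1.43 and 1.25 CPM in MIEN1 KO (log2 fold change -1.21, SE 0.14, adjusted p = 1.56e-05). ZNF223 had 23, 15, 20 and 24 counts in WT and 6, 8, 7 and 9 in MIEN1 KO. The medians of the run were between -0.45 and -0.72 in the 4 MIEN1 KO libraries and between -0.02 and 0.01 in the WT libraries, as log2 deviations from the WT mean. The fall was of like size in each edited library. Within the same span 19 other protein-coding genes were tested, with 4 lower, 2 higher and a median of -0.03. With the GC trend removed their median was -0.29, beside -0.47 for the members of the run.

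Smaller runs of the long arm with at least 3 members gave the same sign. In cluster 8 (ZNF302 to ZNF792) 3 of 5 genes were called lower, ZNF302, ZNF181 and ZNF599, with a median of -0.45. ZNF302 had 270, 285, 233 and 256 counts in WT and 101, 94, 89 and 74 in MIEN1 KO, 10.9 ± 0.714 against 3.92 ± 0.348 CPM (log2 fold change -1.47, SE 0.10, adjusted p = 1.09e-07). In cluster 10, the 2 copies ZNF780B and ZNF780A were called lower while ZNF546 was not, with a median of -0.37. The median was -0.18 and 1 of the 3 was called lower with the GC trend removed. ZNF780A fell from 30.2 ± 1.83 to 20.7 ± 3.66 CPM (-0.55, SE 0.11, adjusted p = 0.00162), and its lowest library by far was MIEN1 KO replicate 4 at 15.3 CPM. Of the 5 genes outside the clusters, on either arm, 2 were called lower and 0 higher, with a median of -0.08. Among them ZNF574 and ZNF526 (42.1 to 42.2 Mb), on the long arm, had a median of 0.18 with 0 called. Their median was -0.11 with the GC trend removed. ZNF181, ZNF599, ZNF780B, ZNF574 and ZNF526 were named after their values were seen.

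The end of the long arm, from ZNF628 to ZNF446 (cluster 16, 55.5 to 58.5 Mb), was mixed, with 11 of 44 genes called lower and 3 higher and a median of -0.14. ZNF550 had the smallest p among those lower, with 5.40, 5.76, 5.51 and 5.76 CPM in WT and 2.42, 2.38, 1.76 and 1.34 CPM in MIEN1 KO (log2 fold change -1.49, SE 0.16, adjusted p = 5.97e-06). Splitting at gaps over 500 kb divided the run into parts of different makeup. From ZNF628 to ZNF835, 9 genes without a KRAB core and with a median transcript GC content of 64.9% had a median of 0.30, with 0 lower and 3 higher. This median turned to -0.15, with 4 lower and 1 higher, when the GC trend was removed. From ZNF264 to ZNF446, 35 genes, 31 of them with a KRAB core, had a median of -0.18, with 11 lower and 0 higher. Without MIEN1 KO replicate 2, 7 genes of the run were called higher. The median of the run was -0.09 without MIEN1 KO replicate 1, 3 or 4 or WT replicate 2.

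On the short arm, cluster 2 (ZNF557 to ZNF846, 13 genes) had a median of -0.00 with 0 lower and 1 higher (0.067 with 1 lower and 3 higher without MIEN1 KO replicate 4), and cluster 1 (ZNF554 to ZNF77, 4 genes) had -0.24 with none called. Cluster 3 (ZNF653 to ZNF791, 16 genes) had a median of -0.18, and its 3 lower genes were ZNF69, ZNF136 and ZNF563, the last 2 named after their values were seen. ZNF69 fell to 3.31 ± 0.211 CPM from 4.34 ± 0.279 CPM in WT (log2 fold change -0.39, SE 0.11, adjusted p = 0.0129). Its call was lost without WT replicate 2 (-0.34, adjusted p = 0.0523) and with the GC trend removed (-0.27, adjusted p = 0.0706), and the run had 1 lower gene without WT replicate 2, WT replicate 3 or MIEN1 KO replicate 4. With that trend removed, the medians of clusters 2 and 3 were 0.11 and -0.05.

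**Figure D3:**
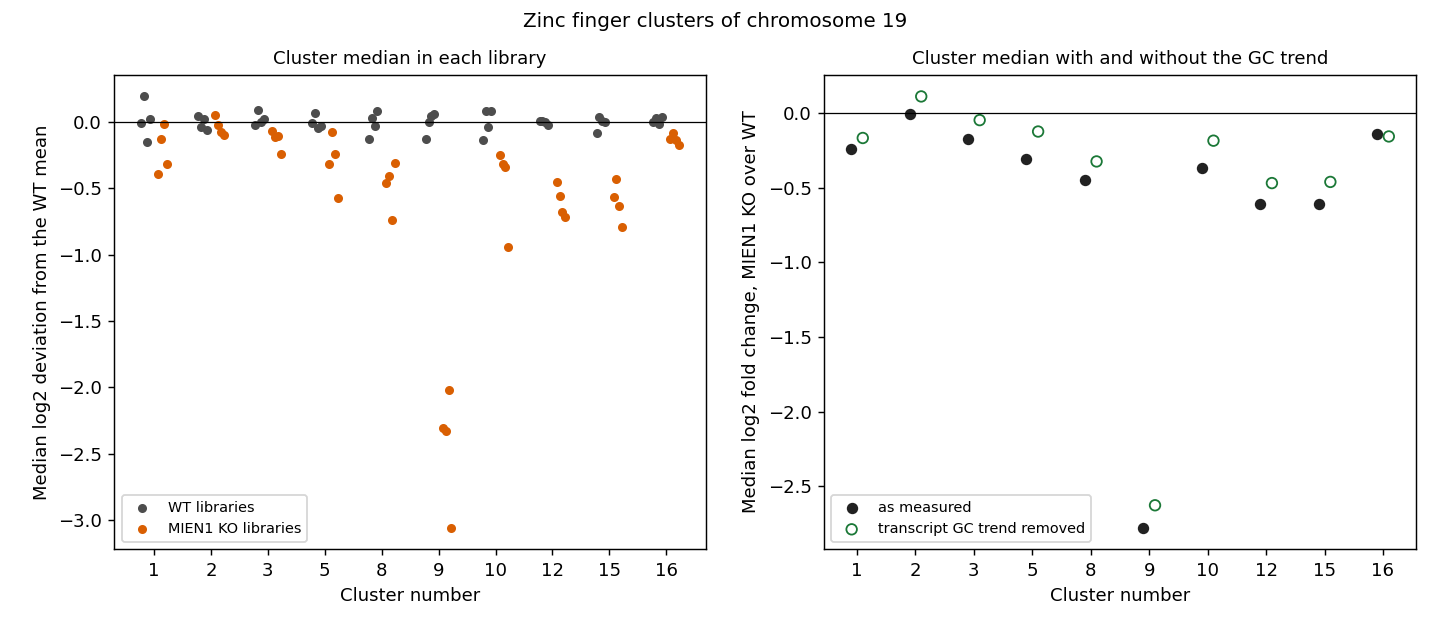
The left panel gives, for each cluster number on the x axis, the median log2 deviation of its members from the WT mean in every library (grey for WT, orange for MIEN1 KO). The right panel gives the cluster's median log2 fold change as measured (filled) and after the transcript GC trend of each library was removed (open circles). Cluster 9, where 7 of 12 genes had to be lower, lies lowest in both panels at -2.78 and -2.63, and clusters 12 and 15 lie at -0.61 in the first and at -0.47 and -0.46 in the second.

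Only 4 of the 168 genes were called higher, and none has a KRAB core. ZNF628 had 39.3, 31.5, 35.3 and 40.3 CPM in WT and 59.1, 48.2, 62.8 and 82.1 CPM in MIEN1 KO (log2 fold change 0.78, SE 0.13, adjusted p = 0.000429). ZNF414 had 229, 213, 187 and 205 counts in WT and 288, 240, 285 and 378 in MIEN1 KO, 8.69 ± 0.761 against 13.2 ± 3.17 CPM (0.60, SE 0.14, adjusted p = 0.00488). ZNF580 had 20.9, 17.4, 20.8 and 22.5 CPM in WT and 27.2, 22.6, 26.3 and 38.4 CPM in MIEN1 KO (0.49, SE 0.14, adjusted p = 0.0121). In each of these the highest library was MIEN1 KO replicate 4, and the groups did not overlap, although in ZNF580 the highest WT and lowest MIEN1 KO library nearly touched.

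ZNF579 had 1266, 1084, 1100 and 1154 counts in WT and 1332, 1135, 1404 and 2159 in MIEN1 KO, 48.1 ± 4.79 against 66.9 ± 23.2 CPM, so the groups overlapped (log2 fold change 0.48, SE 0.18, adjusted p = 0.0437). Its call was lost without any of the WT libraries or MIEN1 KO replicate 3 (0.43 to 0.54, adjusted p 0.0501 to 0.115), and without MIEN1 KO replicate 4 the value was 0.24 (adjusted p = 0.0542). With the GC trend removed ZNF628 was called at a smaller value (0.15, adjusted p = 0.0327). ZNF414 (0.21, adjusted p = 0.0784), ZNF580 (0.13, adjusted p = 0.241) and ZNF579 (-0.02, adjusted p = 0.879) were not. Without MIEN1 KO replicate 2, 9 of the 168 genes were called higher.

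The KRAB domain and the GC content of a transcript moved together with the changes. A KRAB core was found by pattern in the longest coding sequence of 138 members, and 73 of these were called lower and 0 higher, with a median of -0.37. Of the 30 without one, 7 were called lower and 4 higher, with a median of 0.03. Among genes that passed through both groups, 60 of 125 with a KRAB core (48.0%) were called lower and 0 higher. Of those without one, 6 of 29 (20.7%) were lower and 4 higher (13.8%). Over all tested genes 20.7% were called lower and 21% higher, so the genes without a KRAB core were near that share of lower calls. The genes without a KRAB core had a median transcript GC content of 60.8% against 42.5% in those with one, and the more GC-rich transcripts of all genes were higher in MIEN1 KO. Across genes, which are not independent, Pearson's r between log2 fold change and GC content was 0.33 over the 168 genes and 0.28 over 13826 tested genes with a known GC content.

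After the trend with GC content was removed from each library, the medians of genes with and without a KRAB core were -0.28 and -0.25. The genes with a KRAB core then had 63 lower and 1 higher, and those without had 14 lower and 2 higher. The 22 members with a GC content of at least 55% had 0 lower and 4 higher as measured and 10 lower and 1 higher after removal. Over the 168 genes 77 were then lower and 3 higher with a median of -0.27, beside 20.4% lower and 15.2% higher of all tested genes, and 65 of the 80 genes called lower as measured were also called lower after removal. The 15 genes at least 4-fold lower ranged from -8.56 to -2.18 as measured and from -8.48 to -2.02 after removal, although 13 of the 15 had to be lower. In cluster 9 the 5 genes that passed through both groups were called lower after removal, with a median of -0.77.

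**Figure D4:**
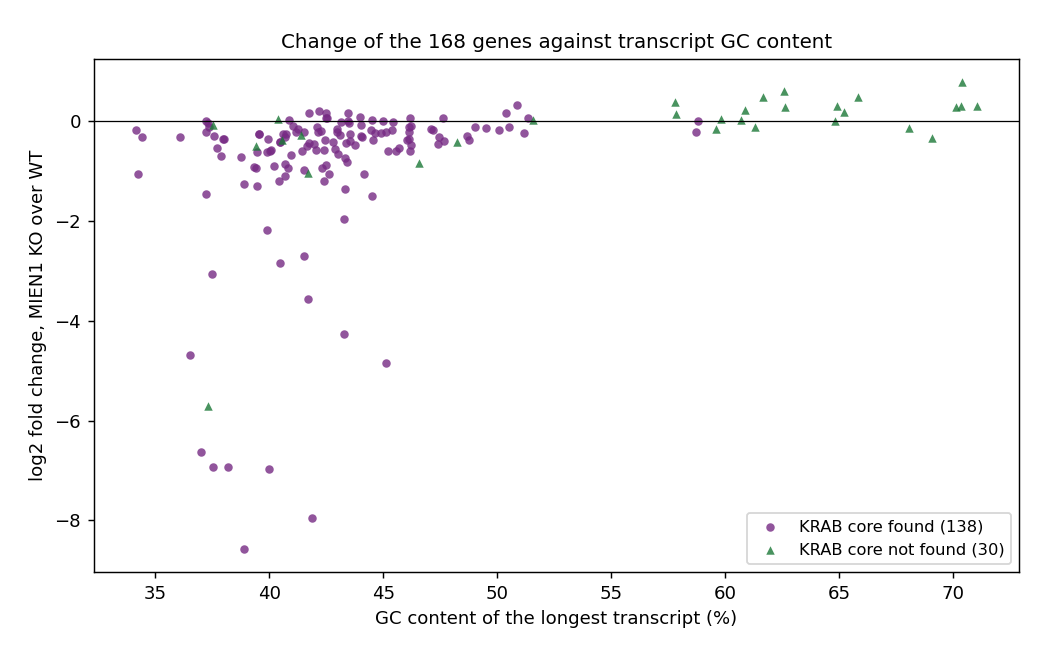
Each point is 1 of the 168 genes, with the GC content of its longest transcript on the x axis in percent and its log2 fold change (MIEN1 KO over WT) on the y axis. Purple circles are the 138 genes with a KRAB core and green triangles the 30 without one. All 15 genes at least 4-fold lower lie at or below 45.1% GC, and the genes above 55% GC are mostly green and lie near or above 0.

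The levels of the genes that fell furthest are given as a description only, since 13 of the 15 passed the threshold through WT alone and a low level is part of how they did so. The 15 genes at least 4-fold lower had 0.119 to 1.29 CPM per kb of transcript in WT with a median of 0.455, beside a median of 1.88 and a range of 0.0547 to 45.7 CPM per kb in the other 153. They held a median of 14 zinc fingers in the longest coding sequence, beside 12 in the others, and 14 of the 15 had a KRAB core. By length, the highest members were ZNF787 (45.7 CPM per kb of transcript in WT and 56.3 in MIEN1 KO), ZNF146 (38.7 and 32.0), ZNF581 (29.8 and 26.8), ZNF524 (18.3 and 22.6) and ZNF579 (16.6 and 23.1). The median over the 168 genes and both groups was 1.43 CPM per kb. ZNF581 and ZNF524 were not called and their groups overlapped, and ZNF787 was not called either (log2 fold change 0.30, SE 0.14, adjusted p = 0.0976), with 149 CPM in MIEN1 KO replicate 4 and 85.4 to 102 CPM in the other MIEN1 KO libraries. On removing the GC trend ZNF787 turned sign and was called lower (-0.34, adjusted p = 8.88e-05), and ZNF581 was called lower (-0.44, adjusted p = 9.97e-05), as it was without MIEN1 KO replicate 4 (-0.24, adjusted p = 0.00304).

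The members with the least change, besides ZNF101, were ZNF561, ZNF324, ZNF784 and ZNF814, with log2 fold changes from -0.01 to 0.01. After removal of the GC trend ZNF784 (-0.46, adjusted p = 0.00137) and ZNF324 (-0.26, adjusted p = 0.00433) were called lower, and without MIEN1 KO replicate 4 ZNF784 was at -0.22 (adjusted p = 0.0343). ZNF274, which binds the 3′ ends of zinc finger genes and recruits SETDB1 there, was 8.60 ± 0.686 CPM in WT and 8.91 ± 0.480 CPM in MIEN1 KO (0.05, SE 0.09, adjusted p = 0.679). ZNF154 and ZNF132, both known for methylated promoters in tumours, were not called either, at 1.41 ± 0.296 against 1.27 ± 0.376 CPM and 2.01 ± 0.190 against 1.81 ± 0.426 CPM. ZNF382, ZNF471 and ZNF582, known as methylated in cancers, were at 0 in all 8 libraries, and ZNF568 had a single count in WT replicate 1.

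Summed over the 168 genes, the share of all counts was between 0.211% and 0.216% in the WT libraries and between 0.182% and 0.187% in the MIEN1 KO libraries. The median log2 deviation from the WT mean was between -0.01 and 0.03 in WT and was -0.32, -0.25, -0.28 and -0.45 in MIEN1 KO replicates 1 to 4. The groups did not overlap, and replicate 4 was the lowest. These shares and medians include the 14 genes that had to be lower. Over the 154 genes that passed through both groups, the median log2 fold change was -0.26. No member was at 0 in any WT library, while 7, 7, 7 and 8 members were at 0 in MIEN1 KO replicates 1 to 4. The members at 0 are all among those 14, so the count threshold favoured this contrast. Without replicate 4, the median log2 fold change was -0.24 and 78 genes were called lower, beside 21.5% of all genes.

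For comparison, 214 ZNF-numbered protein-coding genes on other chromosomes were tested, of which 46 were called lower (21.5%) and 40 higher (18.7%), near the shares of all tested genes, with a median of -0.09. Among 706 other protein-coding genes of chromosome 19, 92 were lower (13%) and 266 higher (37.7%), with a median of 0.18. With the GC trend removed these medians were -0.05 and -0.12. The ZNF-numbered genes on other chromosomes then had 35 of 214 lower and 16 higher. The other genes of chromosome 19 had 260 of 706 lower and 112 higher, and the 168 genes had 77 lower and 3 higher. Over all tested genes 20.4% were then lower and 15.2% higher, so the other genes of chromosome 19 were also lower more often than all genes. Whether the ZNF-numbered genes of chromosome 19 differ from either set was not tested, since the genes are not replicates.

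The genes that act with KRAB zinc finger proteins were listed too. Of a list of cofactors of KRAB repression, 32 genes were tested and UHRF1 was not found by that symbol, with 4 lower (12.5%), 6 higher (18.8%) and 22 not called, beside 20.7% and 21% of all tested genes. TRIM28, the protein that KRAB domains bind, was 959 ± 44.3 CPM in WT and 1043 ± 154 CPM in MIEN1 KO (log2 fold change 0.12, SE 0.09, adjusted p = 0.315). Its sign turned and it was called lower with the GC trend removed (-0.29, adjusted p = 0.000382). SETDB1 was 30.5 ± 0.841 and 29.1 ± 1.06 CPM (-0.07, SE 0.06, adjusted p = 0.416). HDAC2, a histone deacetylase of the NuRD complex, fell from 201.5 to 128.5 CPM (-0.65, SE 0.06, adjusted p = 3.94e-06).

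The other lower cofactors were SMARCAD1, a chromatin remodeller, DNMT3B, a DNA methyltransferase, and KIAA1551 (RESF1), with log2 fold changes of -0.26, -0.26 and -0.33. The higher ones were the NuRD subunits MTA1 (0.45, adjusted p = 0.00129), MTA2 (0.23) and CHD3 (0.23), the histone H3 lysine 9 methyltransferases EHMT1 (0.28) and EHMT2 (0.43), and the histone chaperone DAXX (0.17). With the GC trend removed 4 cofactors were lower and 3 higher, and MTA1, MTA2, CHD3, EHMT2, DAXX, SMARCAD1 and KIAA1551 were not called. SMARCAD1, DNMT3B, KIAA1551 and DAXX were named after their values were seen. The number of lower cofactors was 1 without WT replicate 1, 3 or 4 and 2 without WT replicate 2 or MIEN1 KO replicate 1 or 4.

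Zinc finger genes of chromosome 19 that carry no ZNF number formed another list. Of 18 found, 5 had enough counts to be tested, with 1 lower, 1 higher and 3 not called. That is 20% each way, beside 20.7% lower and 21% higher of all tested genes, but 5 genes are too few to compare shares. The list is not complete, as HKR1, described above, was not on it and was called lower (log2 fold change -0.41, adjusted p = 0.000813 in edgeR). ZSCAN5A fell to 3.27 CPM from 5.87 CPM in WT (log2 fold change -0.84, SE 0.12, adjusted p = 0.000104). ZBTB45 was 36.4 CPM in WT and 45.1 CPM in MIEN1 KO (0.31, SE 0.10, adjusted p = 0.0236). Its call was lost without WT replicate 2 (0.27, adjusted p = 0.0735), and its sign turned with the GC trend removed (-0.15, adjusted p = 0.0464).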

How the data were processed

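The authors deposited unnormalized counts, with a separate gene list for each of the 8 libraries. TopHat2 2.0.9, HTSeq 0.6.1 and the build GRCh38 are named per the submitters' processing notes. Annotation release, use of strand and treatment of multi-mapped reads were not given in the sources used here. Transcripts of 52 of the 168 members share at least 10% of their 50-base words with another gene, and 94 share exon bases with another annotated gene, so reads of these may be split, lost or, if strand was not used, joined. Libraries held 21940903 to 25148790 counts. Where a whole group was at 0, 3 counts for the group served as the limit (0.0312 CPM for WT, 0.0329 CPM for MIEN1 KO).

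Symbols and positions came from GENCODE release 29 (45342 of 48162 identifiers found). Genes were tested with edgeR 4.0.16 (filterByExpr, TMM factors 0.929 to 1.03, a robust quasi-likelihood fit with group as its only term, two-sided p adjusted by Benjamini-Hochberg over 14228 genes, threshold 0.05). The SE is the one implied by the F statistic and is too small where a group has few counts. The fitted fold change of a gene at or near 0 depends on a prior count and is no bound. Alternatives were DESeq2 1.42.0 size factors and Wald test, upper-quartile factors, other filters, limma-voom (limma 3.58.1), a replicate block, a per-library loess curve (span 0.5) of log2 level on transcript GC entered as an offset, leaving out each library, and other thresholds on members and gaps. The restriction to members without shared exon bases was added after seeing the data. Deviations per library are log2 CPM with a prior count of 2. The KRAB core and zinc fingers were found by pattern in the longest GENCODE coding sequence. The pipeline was tested on simulated data and ran in R 4.3.3 and Python 3.11.15.

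The members, gene lists, tests and the rule for named genes were chosen with earlier results of these data known. The rule names the 12 members with the largest call in each direction without overlap, the called member with the smallest p in each cluster and direction, and the 5 with the highest CPM per kb. It adds the 5 with the smallest change at 5 CPM or more, members of known role, those next to the threshold or past it in 1 group only, up to 6 called genes of each list, and MIEN1.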

Additional observations from a re-analysis of the deposited data

Results flagged for a closer look

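In a group of 4 libraries, a value was marked where its gap to the nearest library took up nearly all of the group's range (Dixon's test at the 95% level), over 118 groups of the named genes and cluster medians. Chance marks about 1 group in 20, and 9 were marked. ZNF784 was at 24.8 CPM in MIEN1 KO replicate 4 and at 14.1 to 15.2 CPM in the other MIEN1 KO libraries, and without that library its log2 fold change was -0.22 (adjusted p = 0.0343). The median log2 deviation of cluster 10 was -0.94 in MIEN1 KO replicate 4 and -0.34 to -0.25 in the other MIEN1 KO libraries. ZNF302 was at 9.80 CPM in WT replicate 3 and at 11.1 to 11.3 CPM in the other WT libraries, all above every MIEN1 KO library. ZNF253 was at 1.23 CPM in WT replicate 4 against 0.879 to 0.926 CPM in the other WT libraries, and at 0 CPM in MIEN1 KO replicate 4 against a single count in each of the others. The remaining marks rest on 1 or 2 counts beside libraries at 0, for ZNF567 (0.0462 CPM in MIEN1 KO replicate 3), ZNF260 (0.0926 CPM in MIEN1 KO replicate 4), ZNF607 (0.0833 CPM in MIEN1 KO replicate 1) and ZNF568 (0.0418 CPM in WT replicate 1).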

How the results depend on the processing

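The number of members called lower was 60 to 96 under the other scalings, filters, tests and the GC correction, and 68 to 84 on leaving out 1 library. It was 58 of the 132 members with 50 counts in 4 libraries, 63 of the 150 with 10 counts in all 8, 53 of the 116 members with under 10% shared 50-base words and 33 of the 74 members without shared exon bases, where fewer genes were counted. The members called higher were 8 with the replicate block, 2 with that block after removal of the GC trend, 2 of the 74 without shared exon bases, and 3 to 9 on leaving out 1 library. The median over the members was -0.37 to -0.26 under all alternatives but leaving out 1 library, where it was -0.34 to -0.24. Upper-quartile factors moved the split over all genes to 26.4% lower and 17.3% higher.

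With the GC trend removed, alone and with the replicate block, the medians were 0.11 and 0.11 for cluster 2, -0.047 and -0.050 for cluster 3, -0.12 and -0.12 for cluster 5, -0.47 and -0.47 for cluster 12, and -0.46 and -0.46 for cluster 15. On leaving out 1 library, cluster 2 ranged from -0.077 to 0.067 and cluster 16 from -0.15 to -0.088. Under the filter of 50 counts in 4 libraries, cluster 9 kept 4 tested genes with a median of -0.80, and cluster 16 had -0.18. Cluster 16 had -0.19 with upper-quartile factors and 0.30 and -0.18 in its parts split at 500 kb, the first of which had -0.15 with the GC trend removed. The number of genes called differed by more than 1.5 times in single clusters too. Cluster 16 had 18 lower and 1 higher with the GC trend removed, 17 lower and 0 higher with the replicate block added to it, 17 lower with upper-quartile factors, 5 higher with no filter and 6 higher with the replicate block. Cluster 3 had 1 lower with the GC trend removed, 0 with the block added and 6 with upper-quartile factors, and cluster 2 had 3 lower with upper-quartile factors and 3 higher in the DESeq2 Wald test. With the 50-count filter cluster 9 had 3 lower and cluster 5 had 2, and in cluster 10 there was 1 lower with the GC trend removed.

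Of the cofactors, 7 were lower with the 50-count filter, 9 with upper-quartile factors and 1 to 5 on leaving out 1 library, and 3 were higher with the GC trend removed, with and without the block. Of the neighbours without a ZNF number, the lower ones were 4 with the GC trend removed, 3 with the block added, 2 with no filter, 2 with upper-quartile factors and 1 to 2 on leaving out 1 library, and the higher ones 0 with the GC trend removed, 0 with the block added and 0 to 1 on leaving out 1 library.

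Signs turned in several named genes. With the GC trend removed, and with the block added, they were 0.12 and 0.12 for ZNF561, -0.26 and -0.26 for ZNF324, -0.015 and -0.013 for ZNF274, -0.15 and -0.15 for ZNF524, -0.34 and -0.33 for ZNF787, -0.15 and -0.15 for ZBTB45, and -0.021 and -0.036 for ZNF579. With upper-quartile factors they were -0.057 for ZNF101, -0.055 for ZNF324, -0.047 for ZNF814 and -0.0049 for ZNF274. With the 50-count filter they were -0.016 for ZNF101, -0.015 for ZNF324 and -0.0070 for ZNF814. ZNF561 was 0.0058 in both DESeq2 fits, and ZNF101 was -0.00090 with no filter. On leaving out 1 library, ZNF784 ranged from -0.22 to 0.086, ZNF561 from -0.052 to 0.067, ZNF324 from -0.022 to 0.056 and ZNF814 from -0.060 to 0.10. The cause was not tested. With the GC trend removed and the block added, ZNF146 (-0.13, adjusted p = 0.0633) and ZNF628 (0.15, adjusted p = 0.0632) were not called.

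Replicate numbers are shared between the groups, but the labels do not say that a number marks a shared origin. The deviations of same-numbered libraries correlated at -0.08, 0.20, 0.07 and 0.01, and not every library correlated best with its own number, so the numbers were not taken as pairs. With the replicate block 82 members were called lower and 8 higher. Depth limits the genes at 0 in every MIEN1 KO library, whose fall can be bounded but not measured.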
